A study of Mus musculus with 10 samples.

Results

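Chemokines and their receptors were examined in RNA sequencing data of mouse liver and liver tumours. The genes were taken by symbol: all Ccl, Cxcl, Ccr, Cxcr and Ackr genes with a number, together with Cx3cl1, Cx3cr1, Xcl1, Xcr1 and Ccrl2 where they were listed. This gave 33 of 16697 genes, of which 19 encode ligands, 9 encode signalling receptors and 5 encode atypical receptors. Samples came from normal liver (NL, n = 4), from tumours induced with c-MYC and the empty vector pT3-EF1α (c-MYC, n = 3) and from tumours induced with c-MYC and FOXO1AAA (c-MYC/FOXO1AAA, n = 3). FOXO1AAA is a form of the transcription factor FOXO1 that AKT cannot inactivate, here carried by a MYC-tagged construct under the EF1α promoter. Both tumour groups were made by hydrodynamic tail vein injection, which brings plasmids and the sleeping beauty transposase into hepatocytes, so that the transgenes are limited to the cells that took them up. The sources differ on the strain (C57BL/6 or FVB) and on whether the control tumours also received MCL1, and the labels give no age. If strain or MCL1 differed between groups, it cannot be told apart from the groups.

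Chemokines are small secreted proteins that guide cells along concentration gradients, and their receptors are membrane receptors that couple to inhibitory G proteins. CXCL12 and its receptor CXCR4 retain and attract leukocytes and progenitor cells, while CXCL9, CXCL10 and CXCL11 are induced by interferons and attract activated T cells through CXCR3. Atypical receptors bind chemokines without G protein signalling and remove or store them, and ACKR3 does so with CXCL12 and CXCL11. In liver, chemokines are made by hepatocytes, Kupffer cells, endothelial cells and stellate cells.

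Levels are given in FPKM (fragments per kilobase of gene and mega (M) reads, with the depth scaled between libraries), which allows genes to be compared per length. They were taken back from the deposited log2 values, which hold a small added count, so that a gene with 0 reads stands slightly above 0. The libraries held 13.12 to 20.55 M reads. The deposited FPKM do not divide by these reads alone, since the depth was also scaled. The relative factor was 0.585 to 0.617 in NL, 1.133 to 1.167 in c-MYC and 1.311 to 1.354 in c-MYC/FOXO1AAA. A larger factor lowers the FPKM. This scaling is part of every level and, unless rescaled, of every fold change given. Replicates differed by more than sampling noise in every pair (chi-square of 8.66 to 31.6 for each degree of freedom), and within groups Pearson's r across genes was 0.9707 to 0.9839. Foxo1 was 6.69 to 7.87 FPKM in NL, 5.17 to 6.46 FPKM in c-MYC and 70.1 to 95.6 FPKM in c-MYC/FOXO1AAA, so FOXO1 followed the labels. Mouse Myc did not follow them, with 4.17 to 22.2 FPKM in NL, 0.561 to 1.05 FPKM in c-MYC and 0.876 to 1.11 FPKM in c-MYC/FOXO1AAA. The sources used here do not say from which species the c-MYC transgene came, and whether its reads count towards mouse Myc was not tested, so the c-MYC label is not checked by these values and the tumour groups are named as labelled throughout. Summed FPKM of 8 hepatocyte markers was 82837 to 93592 in NL, 3824 to 5690 in c-MYC and 893 to 1570 in c-MYC/FOXO1AAA. In these bulk samples, fewer cells of a type and less RNA per cell cannot be told apart. The labels do not say that the samples of a group came from separate animals, so the p-values measure only the spread between these samples.

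Of the 33 genes, 21 reached at least 1 FPKM in at least 3 libraries and were tested for a change above 1.5-fold with limma treat over 14017 genes. A gene was called where the Benjamini-Hochberg adjusted p was under 0.05. In c-MYC versus NL, 3 of the 21 genes were higher and 10 were lower, where 48.1% of all tested genes were called (24.5% higher and 23.6% lower). Between the tumour groups, 4 were higher and 5 lower with FOXO1AAA, where 28.7% of all tested genes were called (15.9% higher and 12.7% lower), and these 9 calls became 5 without c-MYC 1 and 5 without c-MYC/FOXO1AAA 1. Against NL, 5 were higher and 12 were lower in c-MYC/FOXO1AAA, where 57.8% were called (31.2% higher and 26.6% lower). Genes that pass the filter only through the group in which they are high had to differ, so the counts are also given over all 33 genes in a fit without filter. Such genes are Ackr3 and Cxcl14, through c-MYC/FOXO1AAA, and Ackr1, Ackr2, Ccl19, Ccl21a, Ccl24 and Cxcl9, through NL. Cxcl10 and Cx3cl1 would also not have passed without the c-MYC libraries, in which they were highest. Ccl2 would not have passed without the libraries of either tumour group. The 63 results of the 21 genes by comparison kept their calls in the fit without filter. There, 3 were higher and 13 lower in the first comparison (44.8% of all genes called, 22.5% higher and 22.3% lower), 8 and 5 in the second (28.8%, 17.2% and 11.6%) and 6 and 14 in the last (55.8%, 31.2% and 24.6%). The groups did not overlap for 19, 18 and 19 of the 33 genes, or 57.6%, 54.5% and 57.6%, where this held for 68.7%, 61.7% and 76.3% of all genes. The median log2 fold change of the 33 genes was -0.87, 0.30 and -0.96, beside 0.06, 0.07 and 0.26 for all genes. After rescaling to the same FPKM total, which moved the median of all tested genes in c-MYC versus NL from 0.08 to 1.01, the split was 7 higher and 7 lower in that comparison. For c-MYC/FOXO1AAA versus NL the split was then 6 and 6, with a median of all tested genes of 1.31 in place of 0.21.

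**Figure D1:**
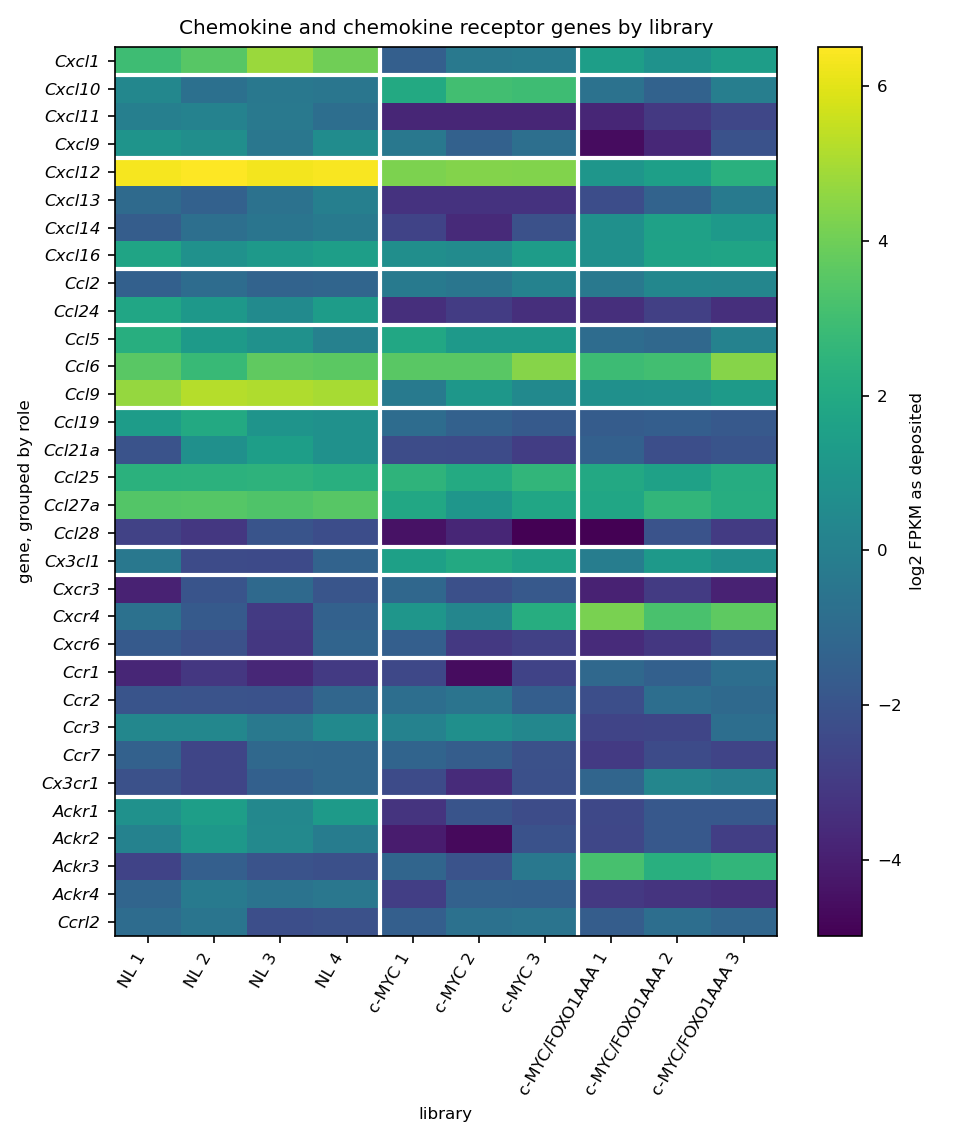
Heat map of deposited log2 FPKM (colour) for 32 of the 33 chemokine and chemokine receptor genes (vertical axis, grouped by role) in the 10 libraries (horizontal axis, white lines between groups). Cxcl12 and Ccl9 are brightest in the 4 NL libraries, and Cxcr4 and Ackr3 in the 3 c-MYC/FOXO1AAA libraries.

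The most abundant genes differed by group. In NL the highest means were those of Cxcl12 (83.7 FPKM), Ccl9 (32.8 FPKM) and Cxcl1 (15.7 FPKM), all of them ligands. In c-MYC they were Cxcl12 (19.8 FPKM), Ccl6 (15 FPKM) and Cxcl10 (6.56 FPKM). In c-MYC/FOXO1AAA the receptor Cxcr4 stood first (13.5 FPKM), followed by Ccl6 (12.4 FPKM), and the atypical receptor Ackr3 came next (6.6 FPKM). In NL the range of Cxcl12 lay above that of Ccl9, while those of Ccl9 and Cxcl1 overlapped. In c-MYC the ranges of Cxcl12 and Ccl6 overlapped, and Ccl6 lay above Cxcl10. In c-MYC/FOXO1AAA the overlap was between Cxcr4 and Ccl6 and between Ccl6 and Ackr3.

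Cxcl12, the homeostatic ligand of CXCR4 and ACKR3, was lower in c-MYC than in NL and lower again in c-MYC/FOXO1AAA. The ranges of the 3 groups were separate, with an NL mean of 83.7 ± 5.45 FPKM (n = 4, SD). Over the same groups its receptors went the other way. Cxcr4 was higher in c-MYC than in NL and higher again in c-MYC/FOXO1AAA, and Ackr3 was higher in c-MYC/FOXO1AAA compared with either other group.

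Cxcl12 was 81.9, 91, 78 and 83.9 FPKM in the NL libraries, 18.8, 20.6 and 20 FPKM in c-MYC and 2.09, 2.8 and 4.97 FPKM in c-MYC/FOXO1AAA. The libraries lay close together in NL and in c-MYC and were less even in c-MYC/FOXO1AAA, and each step was larger than the spread. In c-MYC versus NL its log2 fold change was -2.08 (limma adjusted p 0.000125, SE 0.23). From c-MYC to c-MYC/FOXO1AAA it was -2.69 (limma adjusted p 3.26e-05, SE 0.25), and from NL to c-MYC/FOXO1AAA it was -4.76 (limma adjusted p 4.09e-08, SE 0.23). Each of the c-MYC/FOXO1AAA libraries held 287 to 546 reads of Cxcl12, so the low level there did not rest on a few reads.

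Cxcr4, the G protein-coupled receptor of CXCL12, was 0.617, 0.301, 0.122 and 0.374 FPKM in NL, 2.09, 1.21 and 4.5 FPKM in c-MYC and 18.3, 9.23 and 12.8 FPKM in c-MYC/FOXO1AAA. The 3 groups did not overlap, although the c-MYC libraries were uneven, with a mean of 1.65 FPKM without c-MYC 3 in place of 2.6 FPKM. The log2 fold change was 2.89 in c-MYC versus NL (limma adjusted p 0.00302, SE 0.56) and 5.41 in c-MYC/FOXO1AAA versus NL (limma adjusted p 1.31e-05, SE 0.56). Between the tumour groups it was 2.52 (limma adjusted p 0.0186, SE 0.6). This last call was lost without c-MYC 1 (limma adjusted p 0.0518), without c-MYC 2 (0.0777) and without c-MYC/FOXO1AAA 1 (0.0693), within a range of 0.00175 to 0.0777 over all alternatives.

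Ackr3, the atypical receptor of CXCL12, was 0.157, 0.35, 0.239 and 0.22 FPKM in NL, 0.43, 0.246 and 0.767 FPKM in c-MYC and 8.88, 4.84 and 6.08 FPKM in c-MYC/FOXO1AAA. The NL and c-MYC libraries overlapped, and every c-MYC/FOXO1AAA library lay above both. The log2 fold change was 3.88 against c-MYC (limma adjusted p 9.65e-05, SE 0.45) and 4.79 against NL (limma adjusted p 3.31e-06, SE 0.42). In c-MYC versus NL it was 0.90 (limma adjusted p 0.391, SE 0.42), which passed the threshold after rescaling to the same FPKM total (limma adjusted p 0.0123, within 0.0123 to 1 over the alternatives). The c-MYC libraries held 12 to 41 reads of Ackr3 each, and the c-MYC/FOXO1AAA libraries 363 to 668. Ackr3 passed the filter only through c-MYC/FOXO1AAA. Without the filter, the limma adjusted p was 8.27e-05 against c-MYC and 2.74e-06 against NL.

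**Figure D2:**
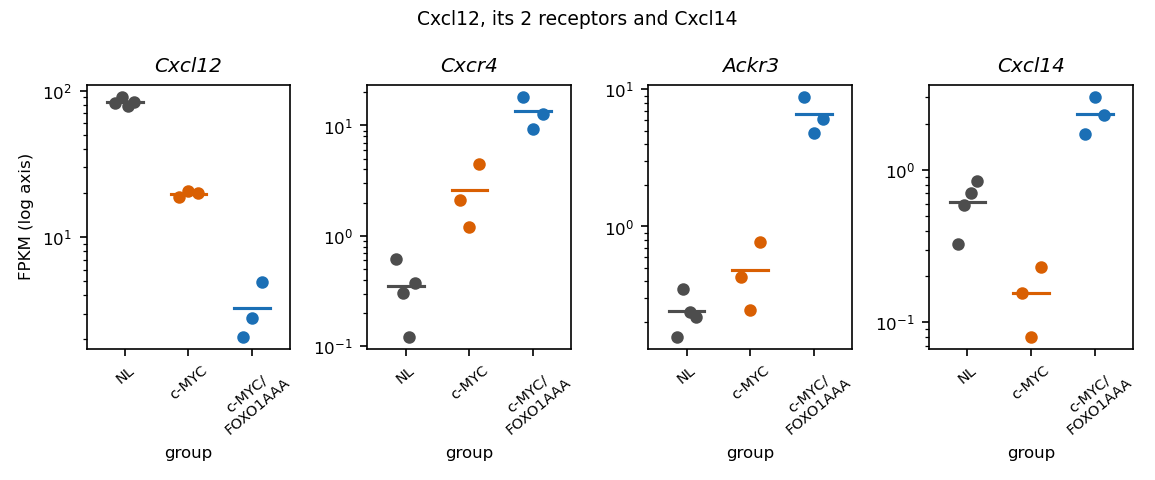
FPKM (vertical axis, log scale, one scale per gene) of Cxcl12, its receptors Cxcr4 and Ackr3, and Cxcl14 by group (horizontal axis), with 1 point per library and a line at the group mean. Cxcl12 falls in steps from a mean of 83.7 to 19.8 and 3.29 FPKM, while Cxcr4 and Ackr3 reach means of 13.5 and 6.6 FPKM in c-MYC/FOXO1AAA.

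The promoters of these 3 genes are shown because the genes moved together or in opposition. Each sequence holds the 250 bases before the RefSeq start of the gene in GRCm38.p6, read 5′ to 3′ on the strand of the gene, with matches to the motifs searched in capitals. Positions are those of the first base of a match, counted back from the start. Cxcl12 lies on the plus strand (chr6:117168285-117168534), Cxcr4 on the minus strand (chr1:128592300-128592549) and Ackr3 on the plus strand (chr1:90203730-90203979).
Cxcl12: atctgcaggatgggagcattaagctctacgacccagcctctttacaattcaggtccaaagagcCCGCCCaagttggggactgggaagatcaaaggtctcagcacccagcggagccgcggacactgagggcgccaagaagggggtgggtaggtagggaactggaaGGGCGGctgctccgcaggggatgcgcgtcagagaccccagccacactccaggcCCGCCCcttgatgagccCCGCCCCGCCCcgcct
Cxcr4: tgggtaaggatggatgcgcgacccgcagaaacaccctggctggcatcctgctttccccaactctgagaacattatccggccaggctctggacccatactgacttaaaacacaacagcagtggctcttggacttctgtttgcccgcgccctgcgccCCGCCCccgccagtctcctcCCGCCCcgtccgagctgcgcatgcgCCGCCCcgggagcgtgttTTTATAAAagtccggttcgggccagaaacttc
Ackr3: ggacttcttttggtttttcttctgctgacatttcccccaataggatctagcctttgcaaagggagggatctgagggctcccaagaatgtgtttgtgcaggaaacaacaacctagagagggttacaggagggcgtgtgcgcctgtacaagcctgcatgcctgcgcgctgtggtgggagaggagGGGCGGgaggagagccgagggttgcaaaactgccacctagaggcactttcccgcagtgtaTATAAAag
The motifs searched on both strands were the forkhead site GTAAACA, the E-box CACGTG that MYC binds, the interferon response element GAAANNGAAA, the NF-kB site, the TATA box TATAAA and the GC box GGGCGG. Promoter entries were matched for 26 of the 33 genes. The Cxcl12 window holds 5 GC boxes, at 187, 86, 33, 16 and 11 bases before the start, of which the last 2 overlap. The Cxcr4 window holds 3 GC boxes, at 95, 75 and 50 bases, and a TATA box on both strands at 32 and 30 bases. The Ackr3 window holds 1 GC box, at 68 bases, and a TATA box at 8 bases. A GC box is found in 32.7% of 32851 mouse promoters of this length and a TATA box in 12.4%. The letters of the forkhead site were found in none of the 26 genes (3.17% of all promoters), and likewise those of the E-box (6.02%), which says only that they are not in these windows.

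Other homeostatic CXC ligands behaved differently from Cxcl12. Cxcl14, a ligand of epithelia and fibroblasts, was 0.328, 0.587, 0.709 and 0.84 FPKM in NL, 0.155, 0.0807 and 0.229 FPKM in c-MYC and 1.71, 3.02 and 2.27 FPKM in c-MYC/FOXO1AAA. It was thus lowest in c-MYC and highest in c-MYC/FOXO1AAA, with no overlap between any groups. Its log2 fold change was 4.00 between the tumour groups (limma adjusted p 9.39e-05, SE 0.46) and 1.97 against NL (limma adjusted p 0.00908, SE 0.43). Cxcl14 passed the filter only through c-MYC/FOXO1AAA, and without the filter these limma adjusted p were 8.27e-05 and 0.0092. The fall in c-MYC by 2.03 (limma adjusted p 0.00872, SE 0.43) rests on 4 to 10 reads per NL library and 0 to 4 per c-MYC library, and the call was lost on the log2(FPKM + 1) scale (limma adjusted p 1) and when libraries were rescaled to an equal FPKM total (0.182, within 0.00137 to 1 over the alternatives).

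Cxcl16, a membrane-bound ligand of CXCR6, was 1.77 to 3.3 FPKM in NL, 1.46 to 2.54 FPKM in c-MYC and 1.71 to 3.33 FPKM in c-MYC/FOXO1AAA, and was called in none of the 3 comparisons. Rescaling to the same FPKM total gave a call for Cxcl16 in c-MYC/FOXO1AAA versus NL (log2 fold change 1.2, limma adjusted p 0.0438). Its receptor Cxcr6 stayed between 0.0834 and 0.413 FPKM in all 10 libraries, with at most 10 reads in any of them. Cxcl13, the B cell attractant, did not pass the filter. It had 3 to 9 reads per NL library, 0 in every c-MYC library and 3, 10 and 16 reads in c-MYC/FOXO1AAA. It was at least 10.9-fold lower in c-MYC than in NL and at least 7.25-fold higher in c-MYC/FOXO1AAA compared with c-MYC, counted against 3 reads over the c-MYC group. Without c-MYC/FOXO1AAA 3 its mean there was 0.301 FPKM in place of 0.472 FPKM. Of 6 B cell markers, 4 were listed, and their summed FPKM was 3.64 to 6.02 in NL, 2.21 to 3.4 in c-MYC and 72.5 to 160 in c-MYC/FOXO1AAA. Cd79a and Ighm were higher in c-MYC/FOXO1AAA compared with c-MYC (log2 fold change 5.42 with limma adjusted p 0.000127, and 5.74 with 1.36e-07). The part of these cells in the Cxcl13 values was not tested.

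Cxcl10 was higher in c-MYC than in NL and fell in c-MYC/FOXO1AAA to values overlapping with those of NL. Its neighbours did not share this course. Cxcl9 was lowest in c-MYC/FOXO1AAA, and Cxcl11 had no reads in any c-MYC library. The 3 genes lie side by side on chromosome 5, with 18.6 kb between Cxcl9 and Cxcl10 and 10.7 kb between Cxcl10 and Cxcl11.

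Cxcl10 was 1.27, 0.593, 0.764 and 0.719 FPKM in NL, 3.94, 8.16 and 7.57 FPKM in c-MYC and 0.628, 0.384 and 0.947 FPKM in c-MYC/FOXO1AAA. All 3 c-MYC libraries lay above all others. The log2 fold change was 2.96 in c-MYC versus NL (limma adjusted p 0.000193, SE 0.39) and -3.35 in c-MYC/FOXO1AAA versus c-MYC (limma adjusted p 0.000196, SE 0.42). In c-MYC/FOXO1AAA versus NL it was -0.39 (limma adjusted p 0.897, SE 0.39), with a sign that turned to 0.71 when the libraries were rescaled to the same FPKM total.

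Cxcl9 was 1.95, 1.62, 0.75 and 1.55 FPKM in NL, 0.777, 0.372 and 0.587 FPKM in c-MYC and 0.041, 0.0758 and 0.235 FPKM in c-MYC/FOXO1AAA, where the libraries held 0, 3 and 11 reads. NL and c-MYC overlapped, and their difference was not past the threshold (log2 fold change -1.32, limma adjusted p 0.206, SE 0.57). Against NL it was lower in c-MYC/FOXO1AAA by 3.94 on the log2 scale (limma adjusted p 0.000188, SE 0.57). Relative to c-MYC its log2 fold change was -2.62 (limma adjusted p 0.0148, SE 0.61), a call lost without c-MYC 1 (limma adjusted p 0.0561) and without c-MYC/FOXO1AAA 1 (0.0609), within 0.00119 to 1 over the alternatives. Leaving out c-MYC/FOXO1AAA 3 lowered the mean of its group from 0.117 to 0.0584 FPKM.

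Cxcl11, which the GENCODE annotation lists as a polymorphic pseudogene in the mouse reference, had 7 to 16 reads in each NL library, 0 in every c-MYC library and 0, 2 and 3 in c-MYC/FOXO1AAA. It was at least 23.1-fold lower in c-MYC than in NL, counted against 3 reads over the group (limma adjusted p 2.39e-05 in the fit without filter), and thus fell where Cxcl10 rose. Their shared receptor Cxcr3 stayed at or below 0.483 FPKM, with 0 to 7 reads in NL, 5 to 12 in c-MYC and 0 to 3 in c-MYC/FOXO1AAA. Summed over each group, the Cxcr3 reads were 24 in c-MYC and 3 in c-MYC/FOXO1AAA, a ratio of 10.7 (95% counting interval 3.24 to 55.4, which leaves out the spread between libraries). This difference was not called in the fit without filter (log2 fold change -1.86, limma adjusted p 0.107, SE 0.63). The T cell markers that were listed, 5 of 10, had a summed FPKM of 4.15 to 5.63 in NL, 2.71 to 3.88 in c-MYC and 2.82 to 3.71 in c-MYC/FOXO1AAA, and the listed NK cell markers, 3 of 8, had 2.04 to 3.72, 1.76 to 2.62 and 0.464 to 0.965. Their part in the result was not tested.

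Ccl5, which attracts T cells and monocytes, was 4.65, 2.42, 1.76 and 1.06 FPKM in NL, 3.7, 2.32 and 2.37 FPKM in c-MYC and 0.528, 0.474 and 1.09 FPKM in c-MYC/FOXO1AAA. The tumour groups did not overlap, while NL 4 reached into the c-MYC/FOXO1AAA range. Its log2 fold change was -2.08 between the tumour groups (limma adjusted p 0.0266, SE 0.5) and -1.72 against NL (limma adjusted p 0.0321, SE 0.47). With 4 to 34 reads per library both calls were fragile. The first was lost without c-MYC 1 (limma adjusted p 0.0925), c-MYC/FOXO1AAA 1 (0.0833) or c-MYC/FOXO1AAA 2 (0.0934), within 0.00487 to 0.156 over the alternatives. The second was lost without NL 1 (limma adjusted p 0.0774), NL 2 (0.0622), c-MYC/FOXO1AAA 1 (0.092) or c-MYC/FOXO1AAA 2 (0.108), within 0.00582 to 0.567.

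**Figure D3:**
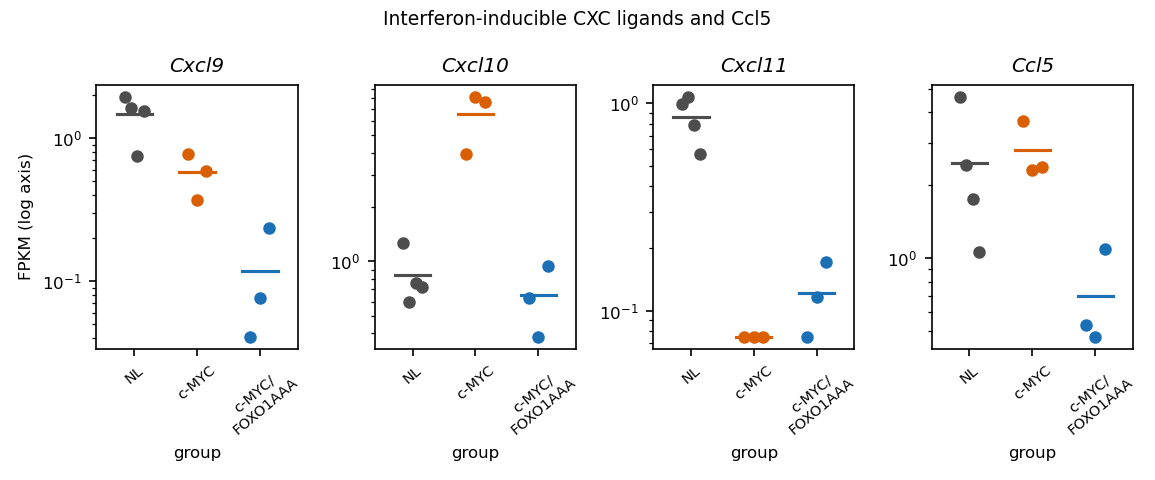
FPKM (vertical axis, log scale, one scale per gene) of Cxcl9, Cxcl10, Cxcl11 and Ccl5 by group (horizontal axis), with 1 point per library and a line at the group mean. Cxcl10 is highest in c-MYC (mean 6.56 FPKM), and the 3 c-MYC points of Cxcl11 lie at the floor of 0 reads.

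The upstream sequences of Cxcl10 and of Cxcl1, a gene described next, are shown because the first was higher and the second lower in c-MYC than in NL. The windows and the capitals are as described above. Cxcl10 lies on the minus strand (chr5:92348890-92349139) and Cxcl1 on the plus strand (chr5:90890995-90891244).
Cxcl10: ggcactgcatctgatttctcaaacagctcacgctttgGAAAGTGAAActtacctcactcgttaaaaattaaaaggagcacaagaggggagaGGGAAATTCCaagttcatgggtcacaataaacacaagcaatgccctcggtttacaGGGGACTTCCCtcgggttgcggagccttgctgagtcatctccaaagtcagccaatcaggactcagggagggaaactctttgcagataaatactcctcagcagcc
Cxcl1: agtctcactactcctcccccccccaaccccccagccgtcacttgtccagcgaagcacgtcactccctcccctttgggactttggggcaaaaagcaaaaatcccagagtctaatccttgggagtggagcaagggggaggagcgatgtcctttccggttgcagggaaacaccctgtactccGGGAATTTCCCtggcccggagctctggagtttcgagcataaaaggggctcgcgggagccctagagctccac
The Cxcl10 window holds an interferon response element 213 bases before the start and NF-kB matches at 159, 104 and 103 bases, the last 2 overlapping. The Cxcl1 window holds overlapping NF-kB matches at 71 and 70 bases. An NF-kB match was found for 7 of the 26 genes, where 7.25% of all promoters hold one, and an interferon response element for 3, namely Ccl19, Cxcl10 and Cxcl14, where 2.98% hold one. The 26 genes have 31 promoters in all, and the shares are by promoter, so these counts and shares differ in unit. These matches are descriptions of sequence and not measured binding.

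Cxcl1, a neutrophil attractant that acts through CXCR2, was 7.63, 11.6, 27.6 and 16.1 FPKM in NL, 0.353, 0.793 and 0.867 FPKM in c-MYC and 2.72, 1.81 and 2.64 FPKM in c-MYC/FOXO1AAA. The NL libraries varied widely but lay above all tumour libraries, and the tumour groups did not overlap either. Its log2 fold change was -4.50 in c-MYC versus NL (limma adjusted p 1.31e-05, SE 0.44) and -2.58 in c-MYC/FOXO1AAA versus NL (limma adjusted p 0.00113, SE 0.44), where the second call was lost after rescaling to the same FPKM total (limma adjusted p 0.0503, within 0.00024 to 0.0503 over the alternatives). The rise between the tumour groups was 1.91 (limma adjusted p 0.0315, SE 0.47), and this call was lost without c-MYC 1 (limma adjusted p 0.118), c-MYC/FOXO1AAA 1 (0.0911) or c-MYC/FOXO1AAA 3 (0.0766), within 0.00509 to 0.357 over the alternatives. Of 7 neutrophil markers, 3 were listed, with a summed FPKM of 1.56 to 5.28 in NL, 1.95 to 3.06 in c-MYC and 1.45 to 16 in c-MYC/FOXO1AAA. None of the 2 that were tested was called in any comparison, and Cxcr2 is not analysed here.

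The CC ligands of the macrophage inflammatory type split in their course. Ccl9, a myeloid attractant that acts through CCR1, was 25.5, 37.3, 35.8 and 32.5 FPKM in NL, 0.819, 2.12 and 1.38 FPKM in c-MYC and 1.74, 1.75 and 2.41 FPKM in c-MYC/FOXO1AAA. All NL libraries were far above all tumour libraries, while the tumour groups overlapped. The log2 fold change was -4.60 in c-MYC versus NL (limma adjusted p 3.82e-07, SE 0.28) and -4.06 in c-MYC/FOXO1AAA versus NL (limma adjusted p 6.59e-07, SE 0.28). Between the tumour groups it was 0.54 (limma adjusted p 1, SE 0.3).

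Ccl6, whose gene lies 9.25 kb from Ccl9 on chromosome 11 and whose product also acts through CCR1, was 11.7, 6.75, 13 and 12.1 FPKM in NL, 12, 11.7 and 21.2 FPKM in c-MYC and 7.52, 8.3 and 21.4 FPKM in c-MYC/FOXO1AAA. All groups overlapped, and it was not called in any comparison (log2 fold changes of 0.44, -0.38 and 0.06). Without c-MYC/FOXO1AAA 3 its mean in that group was 7.91 FPKM in place of 12.4 FPKM, and the small difference to NL then turned sign (log2 fold change -0.42). Ccr1, their receptor, did not pass the filter, with 1 to 2 reads per library in NL, 0 to 7 in c-MYC and 27 to 30 in c-MYC/FOXO1AAA. In the fit without filter Ccr1 was higher in c-MYC/FOXO1AAA compared with c-MYC (log2 fold change 2.12, limma adjusted p 0.027, SE 0.53) and than in NL (2.27, limma adjusted p 0.00633, SE 0.49).

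Of all tested genes, 48.1% were called in c-MYC versus NL and 57.8% in c-MYC/FOXO1AAA versus NL. Kupffer cell markers were called lower for the most part, with 5 of 7 tested in c-MYC and 6 of 7 in c-MYC/FOXO1AAA lower than in NL. Their summed FPKM over 8 listed genes was 336 to 470 in NL, 62.5 to 99.4 in c-MYC and 29.4 to 52 in c-MYC/FOXO1AAA. In c-MYC, Clec4f fell by 5.74 on the log2 scale (limma adjusted p 5.16e-06, SE 0.49), and Vsig4 fell by 5.17 (limma adjusted p 0.000163, SE 0.71). Cd5l and Timd4 were not called there. Timd4 had a mean of 3.27 FPKM in NL and 6.28 FPKM in c-MYC, and Cd5l made up most of the c-MYC sum with a mean of 64.2 FPKM. The 11 monocyte and macrophage markers summed to 51.6 to 86.5 FPKM in NL, 220 to 250 FPKM in c-MYC and 141 to 210 FPKM in c-MYC/FOXO1AAA. Of 10 tested, 3 were higher in c-MYC than in NL and 7 were not called, with a median log2 fold change of 0.47. The 3 were Gpnmb, Cd68 (log2 fold change 2.34, limma adjusted p 4.27e-05) and Lyz2 (2.30, limma adjusted p 3.94e-05), and Lyz2 alone had a mean of 175 FPKM in c-MYC. The part of either list in the chemokine values was not tested.

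Ccl24 and Ccl2 attract eosinophils and monocytes, through CCR3 and CCR2. Ccl24 was 3.59, 2.22, 1.44 and 2.59 FPKM in NL, and the 6 tumour libraries together held 3 reads of it, 1 in c-MYC and 2 in c-MYC/FOXO1AAA. Summed reads put it 173-fold lower in c-MYC (95% counting interval 30.5 to 6884) and 115-fold lower in c-MYC/FOXO1AAA (31.2 to 963) than in NL, and both comparisons were called (limma adjusted p 2.68e-06 and 1.73e-06). Ccl2 was 0.368 to 0.537 FPKM in NL, 0.733 to 1.08 FPKM in c-MYC and 0.795 to 1.26 FPKM in c-MYC/FOXO1AAA, and both tumour groups lay above NL. Only the comparison of c-MYC/FOXO1AAA with NL was called for Ccl2 among the 3 (log2 fold change 1.32, limma adjusted p 0.022, SE 0.28). It rests on 2 to 3 reads per NL library and was lost without c-MYC/FOXO1AAA 2 (limma adjusted p 0.0776) or c-MYC/FOXO1AAA 3 (0.0707), within 4.9e-05 to 0.921 over the alternatives. Ccl2 was called higher in c-MYC than in NL after rescaling to the same FPKM total (limma adjusted p 0.000588) or without a fold threshold (0.00651).

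Ccr3, the eosinophil receptor for CCL24 and CCL5, did not follow Ccl24. It was 1.25, 1.27, 0.787 and 1.4 FPKM in NL, 1.09, 1.67 and 1.28 FPKM in c-MYC and 0.16, 0.169 and 0.566 FPKM in c-MYC/FOXO1AAA. NL and c-MYC overlapped, and all c-MYC/FOXO1AAA libraries were lower. The log2 fold change was -2.42 against c-MYC (limma adjusted p 0.00648, SE 0.47) and -2.21 against NL (limma adjusted p 0.00411, SE 0.44). On the log2(FPKM + 1) scale both calls were lost (limma adjusted p 0.194, within 0.000214 to 0.194 over the alternatives, and 0.246, within 0.000117 to 0.246), and the one against NL was also lost after rescaling to the same FPKM total (0.161). Without c-MYC/FOXO1AAA 3 the mean of that group was 0.165 FPKM in place of 0.298 FPKM.

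The ligands of lymphoid and mucosal tissue were lower in both tumour groups or not called. Ccl27a was 10.7, 11.1, 10.1 and 11.7 FPKM in NL, 3.7, 2.1 and 3.57 FPKM in c-MYC and 3.47, 6.03 and 4.57 FPKM in c-MYC/FOXO1AAA, and NL stood apart from both. Its log2 fold change was -1.85 in c-MYC versus NL (limma adjusted p 0.00038, SE 0.23) and -1.25 in c-MYC/FOXO1AAA versus NL (limma adjusted p 0.0139, SE 0.23), the latter lost without c-MYC/FOXO1AAA 1 (limma adjusted p 0.0664, within 0.000389 to 1 over the alternatives). After rescaling to the same FPKM total both calls were lost (limma adjusted p 0.112 and 1). Ccl19, which guides T cells and dendritic cells through CCR7, was 1.8 to 4 FPKM in NL, 0.305 to 0.525 FPKM in c-MYC and 0.296 to 0.339 FPKM in c-MYC/FOXO1AAA. It fell by 2.65 in c-MYC (limma adjusted p 0.000144, SE 0.33) and fell by 2.95 in c-MYC/FOXO1AAA (limma adjusted p 3.87e-05, SE 0.33) on the log2 scale. These changes rest on 11 to 27 reads per NL library, 2 to 5 per c-MYC library and 2 to 4 per c-MYC/FOXO1AAA library. The tumour levels of Ccl19 are thus close to the added count.

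Ccl21a, the other ligand of CCR7, lies 16.3 kb from Ccl19 and was 0.24, 1.72, 2.73 and 1.8 FPKM in NL. NL 1 held 1 read of it and lay within the tumour range of 0.136 to 0.369 FPKM. Summed reads were 49 in NL and 2 in c-MYC, a ratio of 34.7 (95% counting interval 9.11 to 295). Its log2 fold change was -2.77 in c-MYC versus NL (limma adjusted p 0.0133, SE 0.7) and -2.14 in c-MYC/FOXO1AAA versus NL (limma adjusted p 0.0466, SE 0.7). The first call was lost on the log2(FPKM + 1) scale (limma adjusted p 0.14), after rescaling to the same FPKM total (0.0855) and with the replicate number as a block (0.0548), within 2.49e-05 to 0.14 over the alternatives. The second was lost in 16 of 20 alternatives, among them each left-out library but NL 1 (limma adjusted p 0.0565 to 0.121, within 9.65e-05 to 0.36 over all). Near-identical copies of Ccl19, Ccl21a and Ccl27a exist in the mouse genome and may share reads with them, which makes these values uncertain. Ccl25, an attractant of thymocytes and gut T cells, was 4.75 to 5.44 FPKM in NL, 4.13 to 5.93 FPKM in c-MYC and 3.05 to 4.45 FPKM in c-MYC/FOXO1AAA and was called in no comparison. After rescaling to the same FPKM total, Ccl25 was called higher in c-MYC than in NL (limma adjusted p 0.0491). Without a fold threshold it was called lower in c-MYC/FOXO1AAA than in NL (limma adjusted p 0.0293). Ccl28 had 0 to 24 reads per library and was called in no comparison of the fit without filter. Ccr7 stayed at or below 0.474 FPKM, with 2 to 13 reads per library.

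Cx3cl1, the membrane-bound ligand fractalkine, was higher in both tumour groups. It was 0.773, 0.196, 0.19 and 0.405 FPKM in NL, 2.91, 4.01 and 3.06 FPKM in c-MYC and 0.929, 2.34 and 1.68 FPKM in c-MYC/FOXO1AAA, with no overlap between groups. The log2 fold change was 3.32 in c-MYC versus NL (limma adjusted p 0.000417, SE 0.5) and 2.23 in c-MYC/FOXO1AAA versus NL (limma adjusted p 0.00777, SE 0.5). The second call was lost on the log2(FPKM + 1) scale (limma adjusted p 0.114, within 0.000155 to 0.114 over the alternatives). Between the tumour groups it was -1.10 (limma adjusted p 0.457, SE 0.53), which did not pass the threshold although every c-MYC/FOXO1AAA library lay below every c-MYC library. Its receptor Cx3cr1, a gene of monocytes and resident macrophages, was 0.168 to 0.448 FPKM in NL, 0.0854 to 0.22 FPKM in c-MYC and 0.424, 1.23 and 1.01 FPKM in c-MYC/FOXO1AAA. In the fit without filter its log2 fold change between the tumour groups was 2.39 (limma adjusted p 0.0147, SE 0.54).

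Ccr2, the monocyte receptor of CCL2, was low in every group, at 0.214 to 0.685 FPKM over all 10 libraries with overlapping groups. Ccr1, Ccr3 and Ccr2 lie together on chromosome 9, with 53.3 kb between the first pair and 70.3 kb between the second. Between the tumour groups, Ccr1 was higher in c-MYC/FOXO1AAA, Ccr3 was lower and Ccr2 was not called (log2 fold change -0.40), so these neighbours did not move as 1 block.

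The atypical receptors divided in the same comparison. Ackr1, which carries chemokines across the endothelium of venules, was 1.8, 2.75, 1.29 and 2.39 FPKM in NL, 0.106, 0.247 and 0.203 FPKM in c-MYC and 0.178, 0.285 and 0.287 FPKM in c-MYC/FOXO1AAA. Ackr2, a scavenger of inflammatory CC chemokines, was 1.09, 2.19, 1.33 and 0.889 FPKM in NL, 0.0573, 0.0393 and 0.238 FPKM in c-MYC and 0.174, 0.284 and 0.141 FPKM in c-MYC/FOXO1AAA. For both genes NL lay above all tumour libraries and the tumour groups overlapped. The c-MYC libraries held 0, 3 and 2 reads of Ackr1 and 1, 0 and 11 reads of Ackr2. In c-MYC/FOXO1AAA there were 2, 6 and 4 reads of Ackr1 and 10, 22 and 6 of Ackr2, so the tumour levels rest on few reads. In c-MYC versus NL the log2 fold change was -3.50 for Ackr1 (limma adjusted p 4.09e-05, SE 0.39) and -4.00 for Ackr2 (limma adjusted p 0.000276, SE 0.58). Against NL, c-MYC/FOXO1AAA gave -3.02 for Ackr1 (limma adjusted p 0.000114, SE 0.39) and -2.76 for Ackr2 (limma adjusted p 0.00396, SE 0.58), a call that was lost for Ackr2 after rescaling to the same FPKM total (limma adjusted p 0.0634, within 0.00047 to 0.0634 over the alternatives). The c-MYC mean of Ackr2 was 0.0483 FPKM without c-MYC 3 in place of 0.112 FPKM, and without that library Ackr2 was called higher in c-MYC/FOXO1AAA compared with c-MYC (log2 fold change 2.01, limma adjusted p 0.0299, within 0.0299 to 1 over the alternatives).

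Ackr4, a scavenger of CCL19, CCL21 and CCL25, was 0.429 to 0.804 FPKM in NL, 0.141 to 0.383 FPKM in c-MYC and 0.0923 to 0.118 FPKM in c-MYC/FOXO1AAA, and no groups overlapped. In the fit without filter its log2 fold change was -2.61 in c-MYC/FOXO1AAA versus NL (limma adjusted p 0.000557, SE 0.4). Ccrl2, which presents the attractant chemerin, was 0.215 to 0.695 FPKM with overlapping groups. Ackr3 was thus the only atypical receptor of the 5 that was called higher in c-MYC/FOXO1AAA compared with c-MYC in the fits over all libraries.

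**Figure D4:**
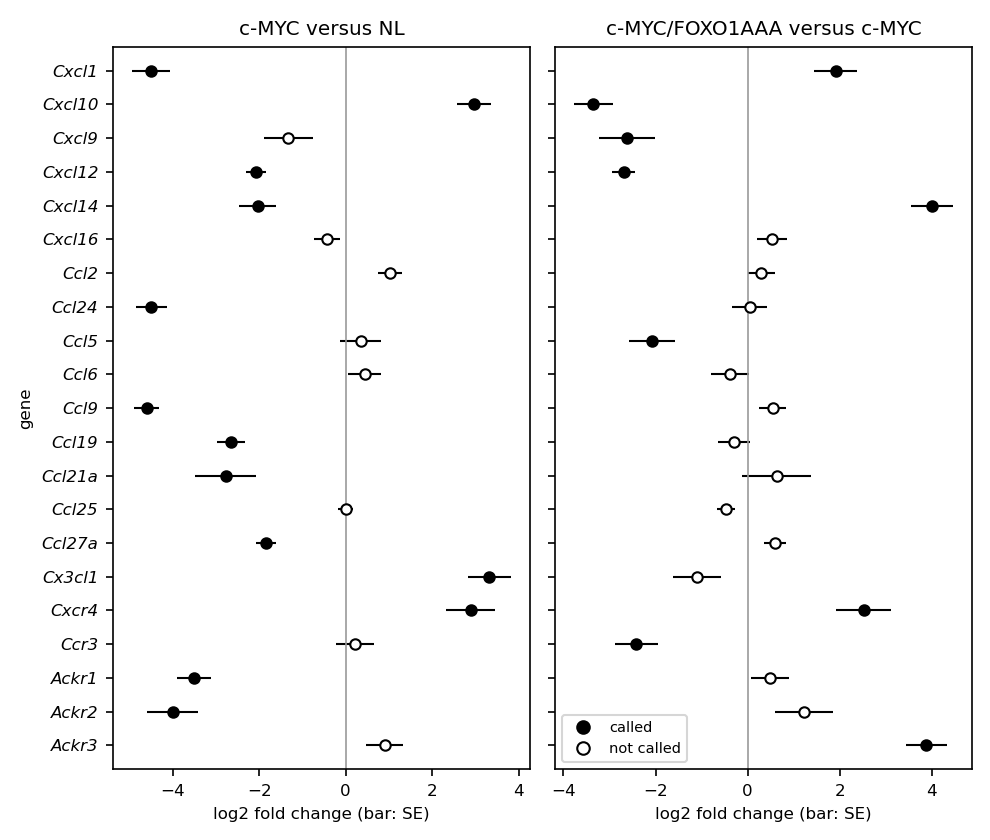
Log2 fold change (horizontal axis, bars are the SE) of the 21 tested chemokine and receptor genes (vertical axis) in c-MYC versus NL (left) and c-MYC/FOXO1AAA versus c-MYC (right), with filled points for called genes. Both panels use the same 3 c-MYC libraries, and Cxcl1, Cxcl10 and Cxcl14 are called in opposite directions in the panels.

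Markers of the cells that line and support the sinusoids were also counted. Of all tested genes, 48.1% were called in c-MYC versus NL, 28.7% between the tumour groups and 57.8% in c-MYC/FOXO1AAA versus NL. The 8 sinusoidal endothelial markers summed to 58.6 to 76.8 FPKM in NL, 7.14 to 8.32 FPKM in c-MYC and 5.5 to 7.5 FPKM in c-MYC/FOXO1AAA, and 6 of 7 tested were lower in c-MYC than in NL. Clec4g fell by 7.37 on the log2 scale (limma adjusted p 7.21e-08, SE 0.38) and Stab2 fell by 3.18 (limma adjusted p 2.35e-05, SE 0.32). The general endothelial markers summed to 68.8 to 77.8, 61.9 to 85.7 and 61.5 to 75.4 FPKM in NL, c-MYC and c-MYC/FOXO1AAA, although single markers moved. Of 7 tested, 4 were lower in c-MYC than in NL, namely Vwf, Kdr, Tek and Tie1 (log2 fold changes of -3.08, -1.79, -1.59 and -1.39), and the median over the 7 was -1.39. Between the tumour groups Cdh5 was higher in c-MYC/FOXO1AAA (log2 fold change 2.49, limma adjusted p 0.000143, SE 0.27) and 6 were not called. The 8 stellate cell and fibroblast markers summed to 86.5 to 110 FPKM in NL, 10.7 to 34.7 FPKM in c-MYC and 364 to 456 FPKM in c-MYC/FOXO1AAA. Of these, 6 were higher in c-MYC/FOXO1AAA compared with c-MYC and 0 were lower, and Dcn rose by 5.90 on the log2 scale (limma adjusted p 3.89e-06, SE 0.44). Dcn alone had a mean of 236 FPKM in c-MYC/FOXO1AAA. Against NL, 5 were higher in c-MYC/FOXO1AAA and 1 was lower, namely Lrat (log2 fold change -3.93, limma adjusted p 9.3e-05, SE 0.52). Cxcr4, Ackr3 and Cxcl14 were high in the same libraries, while Cxcl12, also a gene of stellate cells, was lowest there. The part of these cell types in the chemokine results was not tested.

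Components that act below the receptors were counted from a list of chemokine receptor signalling genes. Of 27 tested, 4 were higher and 4 lower in c-MYC than in NL, 5 were higher and 1 was lower in c-MYC/FOXO1AAA compared with c-MYC, and for c-MYC/FOXO1AAA versus NL the numbers were 8 and 3. In these comparisons 48.1%, 28.7% and 57.8% of all tested genes were called. Between the tumour groups 21 of the 27 were not called, and Prex1 was the 1 that was lower. Gnai1, an inhibitory G protein subunit, was 0.182 ± 0.0621 FPKM (n = 3, SD) in c-MYC and 16.8 ± 2.83 FPKM (n = 3, SD) in c-MYC/FOXO1AAA, higher by 6.57 on the log2 scale (limma adjusted p 1.1e-06, SE 0.43). Pik3cd, the PI3K subunit of leukocytes, rose from 7.85 ± 1.86 FPKM (n = 3, SD) to 105 ± 32.4 FPKM (n = 3, SD), or by 3.73 on the log2 scale (limma adjusted p 6.4e-06, SE 0.29). Elmo1, which links receptors to RAC, rose by 3.13 (limma adjusted p 5.65e-05, SE 0.32), and Rgs2, which turns off G protein signals, rose by 2.90 (limma adjusted p 0.000101, SE 0.32).

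Upstream inputs were counted in the same way. Of all tested genes, 48.1% were called in c-MYC versus NL and 28.7% in c-MYC/FOXO1AAA versus c-MYC. Of 15 tested genes of NF-kB signalling and inflammatory cytokines, 3 were higher and 6 lower in c-MYC than in NL, and 2 were higher and 1 was lower in c-MYC/FOXO1AAA compared with c-MYC. Il1r1, the receptor of interleukin 1, was 10.7 ± 1.3 FPKM (n = 4, SD) in NL, 0.439 ± 0.132 FPKM (n = 3, SD) in c-MYC and 2.14 ± 0.234 FPKM (n = 3, SD) in c-MYC/FOXO1AAA, with log2 fold changes of -4.64 and 2.32 (SE 0.21 and 0.23, limma adjusted p 4.27e-08 and 7.65e-05). Relb was higher in c-MYC than in NL by 1.73 on the log2 scale (limma adjusted p 0.000225, SE 0.19). Of 11 tested genes of interferon signalling, 0 were higher and 3 lower in c-MYC than in NL, where Cxcl10 rose. In c-MYC/FOXO1AAA versus c-MYC, 1 was higher and 1 lower, and Stat2 fell by 2.25 (limma adjusted p 1.33e-05, SE 0.17). Ifng is not analysed here.

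Other chemoattractant genes outside the chemokine families were called in both directions, with 4 higher and 6 lower of 16 tested in c-MYC versus NL and 3 and 3 in c-MYC/FOXO1AAA versus c-MYC. In these comparisons 48.1% and 28.7% of all tested genes were called. Rarres2, which encodes the attractant chemerin, fell from 462 ± 23.5 FPKM (n = 4, SD) in NL to 3.95 ± 2.96 FPKM (n = 3, SD) in c-MYC and was 17 ± 4.07 FPKM (n = 3, SD) in c-MYC/FOXO1AAA, with log2 fold changes of -7.24 (limma adjusted p 7.5e-07) and 2.45 (0.0109). Dpp4, a protease that trims CXCL12 and other chemokines, was 25.9 ± 1.38 FPKM (n = 4, SD) in NL and 3.42 ± 1.33 FPKM (n = 3, SD) in c-MYC (log2 fold change -2.99, limma adjusted p 2.76e-06, SE 0.22). Pf4 was higher in c-MYC/FOXO1AAA compared with c-MYC by 1.65 (limma adjusted p 0.0331, SE 0.38).

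Side by side, the 21 tested genes took 11 courses over the 3 comparisons, 8 of them held by 1 gene each. Cxcr4 was higher in all 3 and Cxcl12 lower in all 3. Ackr1, Ackr2, Ccl19, Ccl21a, Ccl24, Ccl27a and Ccl9 were lower in both tumour groups than in NL with no call between the tumours. Ccl5, Ccr3 and Cxcl9 were lower in c-MYC/FOXO1AAA compared with both other groups, with no call between c-MYC and NL. Ackr3 was higher in c-MYC/FOXO1AAA compared with both other groups. Cxcl1 was lower in both tumour groups than in NL and higher in c-MYC/FOXO1AAA compared with c-MYC. Cxcl14 was lower in c-MYC than in NL and higher in c-MYC/FOXO1AAA compared with both. Cxcl10 was called higher in c-MYC compared with both other groups, and Cx3cl1 was higher in both tumour groups than in NL. Under the main settings, Ccl2 was called for c-MYC/FOXO1AAA versus NL alone, and Ccl25, Ccl6 and Cxcl16 in no comparison. The comparisons share their groups, so these courses are descriptions and not independent results.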

How the data were processed

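RNA from 10 mouse liver samples was sequenced, and the groups were read from the sample titles given in the labels. The table deposited by the authors holds log2 FPKM per gene, with a count of 2, scaled to each library, added before the logarithm. According to the methods, the authors counted reads by gene and analysed them in R. The aligner and counter are not given in the sources used here. The submitters' processing notes name GRCm38 and FastQC 0.11.7. Of 17069 entries, 372 without a symbol or a value were left out. Whole reads were recovered by trying gene lengths up to 130000 bp until all 10 libraries gave whole numbers within 0.002 reads. This gave 1 solution for 16678 of 16697 genes (99.89%) and for all 33 chemokine genes.

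The deposited log2 values were tested with limma 3.58.1 (R 4.3.3, statmod 1.5.0) in place of the count model of the study, because the values are not counts. Genes with at least 1 FPKM in at least 3 libraries were kept (14017), a mean per group was fitted over all 10 libraries with trend and robust estimation, and changes above 1.5-fold were tested 2-sided with treat. The Benjamini-Hochberg threshold was 0.05 over all tested genes. Fold changes are on the log2 scale with the added count and understate the change of low genes. Where a difference is described against a group with at most 3 reads in all, ratios of summed reads with exact 95% intervals, or bounds against 3 reads for a group at 0, are given, and these cover counting error only. The test was checked on simulated data in which few genes, all with many reads, were given large changes. That check therefore does not cover genes with few reads or comparisons in which many genes differ.

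Values in every library are given for genes that passed the filter and were called with a group mean of at least 5 FPKM, for the 12 highest genes and for their partners. The remaining genes, which the rule takes by range and count, were also named after their values had been seen, because they are few. The values of 1 of the 33 genes and of 1 cell marker are not reported here, although the counts and sums include them. Examples of other lists are those with the largest called changes. The genes and lists were chosen with earlier results of these data known. Positions are those of GRCm38 in GENCODE M21 matched by symbol, and promoters are from RefSeq for GRCm38.p6. Ccl2, Ccl24, Ccl5, Ccr7, Cxcl11 and Cxcl16 had no matched promoter entry. Alternatives were a pseudocount of 0.1 or 1, no filter or a mean of at least 5 FPKM, 2 other scalings, no fold threshold or 2-fold, trend and robust off, only the 2 groups compared, the replicate number as a block, and each library left out.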

Additional observations from a re-analysis of the deposited data

Results flagged for a closer look

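Among the 21 tested chemokine and receptor genes, NL was checked for single libraries far from the other 3, since only this group has 4 samples. Ccl6 was low in NL 2, at 6.75 FPKM beside 11.7, 13 and 12.1 FPKM in the other libraries. The gap to the nearest library was 0.843 of the range of the group on the log2 scale, which is above Dixon's 95% critical value for 4 samples. Chance flags about 1 in 20 groups. NL 2 held 27 reads of Ccl6, and without it the log2 fold change of c-MYC/FOXO1AAA versus NL, which was not called, went from 0.06 to -0.16.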

How the results depend on the processing

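The number of chemokine genes called in c-MYC versus NL was 13 of 21, and stayed at 13 with each library left out, but was 4 of 5 with a mean of at least 5 FPKM. In c-MYC/FOXO1AAA versus c-MYC it was 9, and became 5 with log2(FPKM + 1), 5 with a 2-fold threshold and 2 with a mean of at least 5 FPKM. It ranged from 5 to 10 with a library left out, and was 5 without c-MYC 1 and 5 without c-MYC/FOXO1AAA 1. In c-MYC/FOXO1AAA versus NL it was 17, with 4 at a mean of at least 5 FPKM and 14 to 16 with a library left out. Fewer genes are tested at the higher mean, and the cause of the other changes was not tested. Signs turned only for differences that were not called. With the same FPKM total, Cxcl16 in c-MYC versus NL became 0.50, and in c-MYC/FOXO1AAA versus NL Cxcl10 became 0.71 and Ccl25 became 0.64. With an equal median, Ccl25 in c-MYC versus NL became -0.05, Ccl24 between the tumour groups -0.05, and in c-MYC/FOXO1AAA versus NL Ccl6 became -0.08 and Cxcl16 became -0.04. With a library left out, the ranges that crossed 0 were -0.09 to 0.17 for Ccl25 in c-MYC versus NL, -0.18 to 0.22 for Ccl24 between the tumours, and in c-MYC/FOXO1AAA versus NL -0.42 to 0.33 for Ccl6 and -0.08 to 0.40 for Cxcl16. Of 63 results by gene and comparison, 35 kept their direction and call under every alternative run that gave them a value. Calls were lost in 38 and gained in 7 instances under the other settings, and lost in 27 and gained in 1 with a library left out. The filter at a mean of 5 FPKM gave no value for the genes it removed. With the replicate number as a block, 12, 9 and 15 genes were called in the 3 comparisons, and Ccl25 in c-MYC versus NL became -0.04. The block ended the calls of Ccl21a against NL in c-MYC (limma adjusted p 0.0548) and c-MYC/FOXO1AAA (0.13) and of Ccl27a in c-MYC/FOXO1AAA (0.055). The numbers do not pair the samples, since same-numbered samples deviated together with r from -0.04 to 0.027. Depth limits genes with few reads, such as Cxcr6 (1 to 10 per library), where a difference may not be detectable.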
